A study of Homo sapiens with 6 samples.

Results

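The 43 genes described here are a fixed list of lysosomal proteases, other hydrolases, membrane proteins, proton pump subunits, MiT/TFE factors with their regulators, and autophagy genes, matched by gene symbol to the 23754 features of the deposited count table. All 43 symbols were found, each once, and 41 had enough counts to be tested. They were read in IMR-90, an established line of human fetal lung fibroblasts, transduced with a Tet-pLKO-puro lentivirus that carries a doxycycline-inducible short hairpin (sh-2) against ZNF469 and selected with puromycin. Cells were grown with 2 µg/mL doxycycline for 4 days (DOX+, the ShZNF469 libraries, n = 3) or without it (DOX–, the Control libraries, n = 3), so both groups carry the integrated hairpin and differ in doxycycline and in hairpin expression, whose effects cannot be told apart here. The labels give the DOX– cells a wild-type genotype, whereas the study's methods describe the same transduced line left uninduced. The submitted design calls the libraries technical replicates, so the p-values measure the spread between these libraries and may hold no variation between cultures.

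Lysosomes are the acidic compartments in which cells break down proteins, glycans, lipids and worn-out organelles, and autophagy is the route that wraps cytoplasmic cargo in a membrane and delivers it to them. Hydrolases of the lumen do the cleaving, a proton pump keeps the lumen acidic, and a membrane coat of glycoproteins and transporters protects the cytosol and exports the products. Transcription factors of the MiT/TFE family (TFEB, TFE3 and MITF) bind E-box motifs in the promoters of many of these genes, and the folliculin and Rag GTPase machinery on the lysosome surface holds those factors in the cytosol when amino acids are plentiful. In fibroblasts the same organelle degrades collagen that has been taken up or has failed to fold.

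Poly(A)-selected RNA gave 34057675 to 36120260 counts per library. ZNF469, the target, measured 119 ± 7.25 CPM in DOX– libraries against 80.1 ± 0.488 CPM in DOX+ libraries (SD, n = 3 each), where CPM is the count relative to the TMM-scaled library size. All 9 fibroblast markers checked had counts past the filter, and their summed level was 36750 to 37880 CPM in the DOX– libraries and 27380 to 28280 CPM in the DOX+ libraries, with 5 of the 9 (COL1A1, COL1A2, COL3A1, DCN and LUM) called lower. The 8 macrophage markers, of a cell type rich in lysosomes, summed to 0.325 to 0.459 CPM in DOX– and 0.395 to 0.701 CPM in DOX+ libraries, and LYZ, MARCO, C1QA and C1QB were at 0 counts throughout. Epithelial markers summed to at most 0.472 CPM in any library, with SFTPC, SFTPB, NKX2-1 and KRT5 at 0. Among the endothelial markers PECAM1 and CDH5 were at 0, and the summed level of 19.8 to 24.3 CPM in both groups came almost wholly from TEK. Sh-ZNF469 replicate 2 stood apart from the other libraries on the first principal component of all genes (23.9% of the variance, score 32.8 against −12.6 to 0.524), and values without it are given beside CTSA, CTSD, PSAP, FLCN and the relation with GC content. No library duplicated another: within a group, chi-square over degrees of freedom was 4.65 to 8.47 for each pair.

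Levels in uninduced cells spanned a wide range. The deposited FPKM values, which are scaled to transcript length and so can be compared between genes, placed 37 of the 43 genes above the median of all tested features (5.88 FPKM in DOX– cells) and 16 at a percentile of 90.2 or higher. CD63, a tetraspanin of late endosomes and lysosomes, was highest at 672.5 ± 39.5 FPKM (SD, n = 3). Next came cathepsin B (CTSB, 341 ± 15.6 FPKM), the sphingolipid activator precursor PSAP (254 ± 4.59 FPKM) and the membrane glycoprotein LAMP1 (162.5 ± 2.47 FPKM), each mean with its SD over 3 libraries. The autophagy receptor SQSTM1 (157.5 ± 0.568 FPKM) and cathepsins C and D (CTSC, 151 ± 4.95 FPKM, and CTSD, 140 ± 8.81 FPKM) followed, each mean with its SD over 3 libraries. CTSC and CTSD lay within their summed SDs of each other, as did ATP6V1A (18.2 ± 0.448 FPKM) and NEU1 (18.1 ± 0.542 FPKM), and LIPA (11.7 ± 1.27 FPKM) and GLA (11.7 ± 0.094 FPKM), so the order within these pairs is not set beyond the spread (SD, n = 3).

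The low end of the list held CTSK, MITF, CTSO and TFEB, with CTSS and RRAGD below them. Among the MiT/TFE factors TFE3 was the most abundant transcript per length at 39.4 ± 1.05 FPKM, against 4.72 ± 0.0709 FPKM for MITF and 1.46 ± 0.245 FPKM for TFEB (SD, n = 3 DOX– libraries). TFE3 was thus 27.5 ± 3.85 times as abundant as TFEB in DOX– libraries and 24.4 ± 3.83 times in DOX+ libraries by FPKM (SD, n = 3 each), ranges that overlap. Cathepsin K (CTSK), known as the collagen-degrading protease of osteoclasts, stood at 5.83 ± 0.0719 FPKM (SD, n = 3). CTSB was 58.5 ± 3.34 times as abundant as CTSK in DOX– libraries and 70.0 ± 10.1 times in DOX+ libraries by FPKM (SD, n = 3 each). The ranges, 54.8 to 61.4 and 63.6 to 81.7, did not overlap, and the ratio was not tested. CTSB was at 413 FPKM in DOX+ replicate 3, against 334 and 335 in DOX+ replicates 1 and 2. Its CPM there was 1319, against 1309 and 1278. CTSS, a cathepsin of antigen-presenting cells, had 2, 0 and 3 counts in the DOX– libraries and 0 in every DOX+ library. RRAGD, a Rag GTPase, had 3, 0 and 0 counts in DOX– libraries and 0 in DOX+ libraries. Both genes lie at or under a floor of 3 counts per library, no fold change is given, and a difference could not be detected at this depth. These are the 2 listed genes that entered no test.

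**Figure D1:**
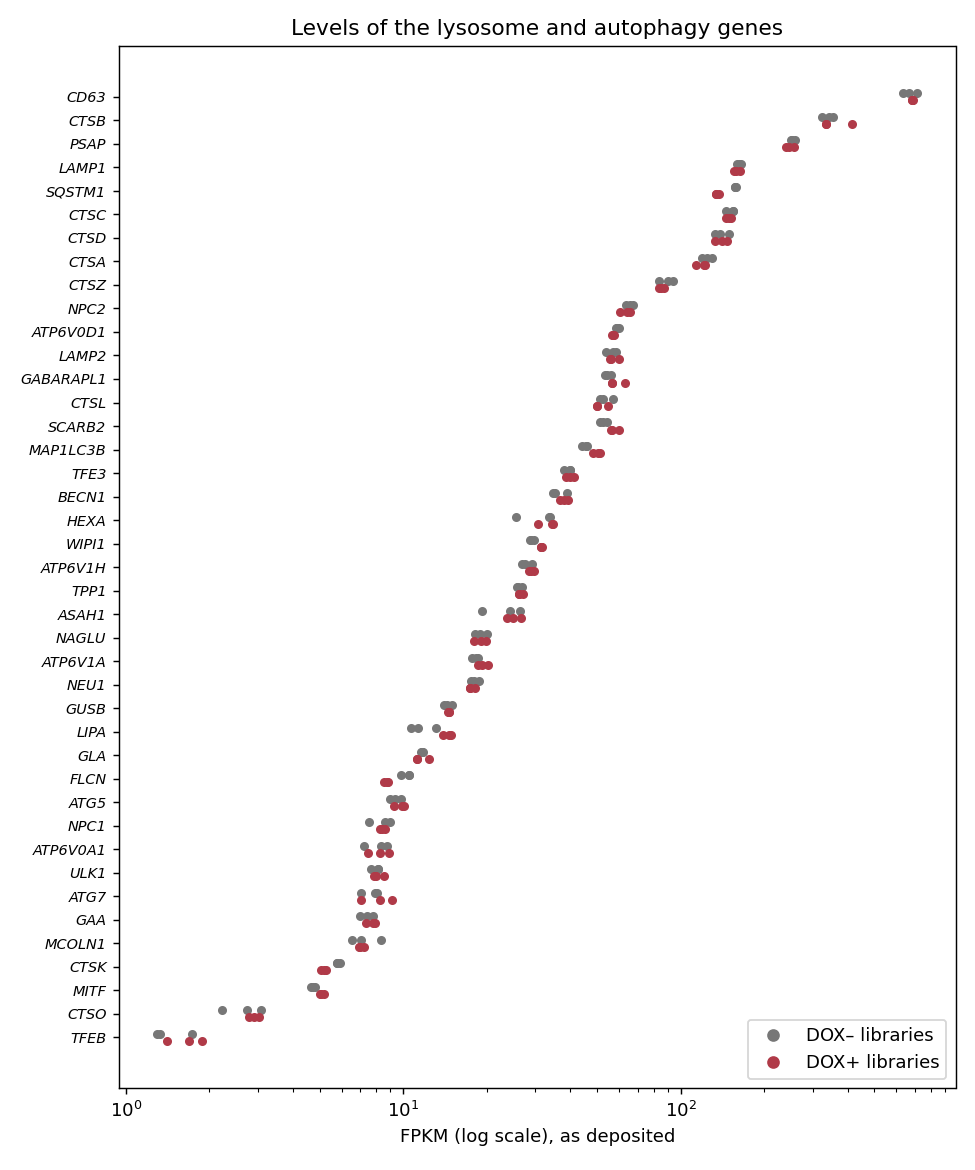
Deposited FPKM (horizontal, log scale) of the 41 tested genes, ordered by their mean in DOX– libraries, with 1 point per library, grey for DOX– and red for DOX+. CD63 is at the top near 672.5 FPKM and TFEB at the bottom near 1.46 FPKM, and for most genes the points of both groups lie close together.

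The comparison of DOX+ with DOX– libraries asked whether these genes changed when the hairpin was induced. SQSTM1 and FLCN fell, and they were the only 2 of the 41 genes past a false discovery rate of 0.05 in edgeR's quasi-likelihood test over all 13991 tested features. By the same criterion 0.715% of all tested features were called lower and 0.400% higher. None of the 41 was called higher by edgeR, where DESeq2 called 1 (LIPA) and limma-voom 0. No share over all features is given for DESeq2 or limma-voom. At an unadjusted p under 0.05, 4 of the 41 were higher (9.76%, against 7.31% of all features) and 7 were lower (17.1%, against 7.69%). The CPM values of the 3 DOX+ libraries lay wholly above those of the 3 DOX– libraries for 6 genes (14.6%, against 9.73% of all features) and wholly below them for 9 (22.0%, against 10.6%). The SE of the log2 fold change had a median of 0.0453 for the 41 genes and 0.0761 for all tested features. The background is thus unlike the listed genes in precision, and a share for features of like level is not given. In bulk RNA, less transcript in every cell and fewer cells with the transcript cannot be told apart. No gene moved by more than 0.5 on the log2 scale, 9 of 41 moved by more than 0.1, 18 were higher and 23 lower, and the median log2 fold change was −0.0084 beside −0.0019 for all tested features. The summed counts of the 43 genes took 0.716% to 0.737% of each DOX– library and 0.706% to 0.725% of each DOX+ library, overlapping ranges.

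**Figure D2:**
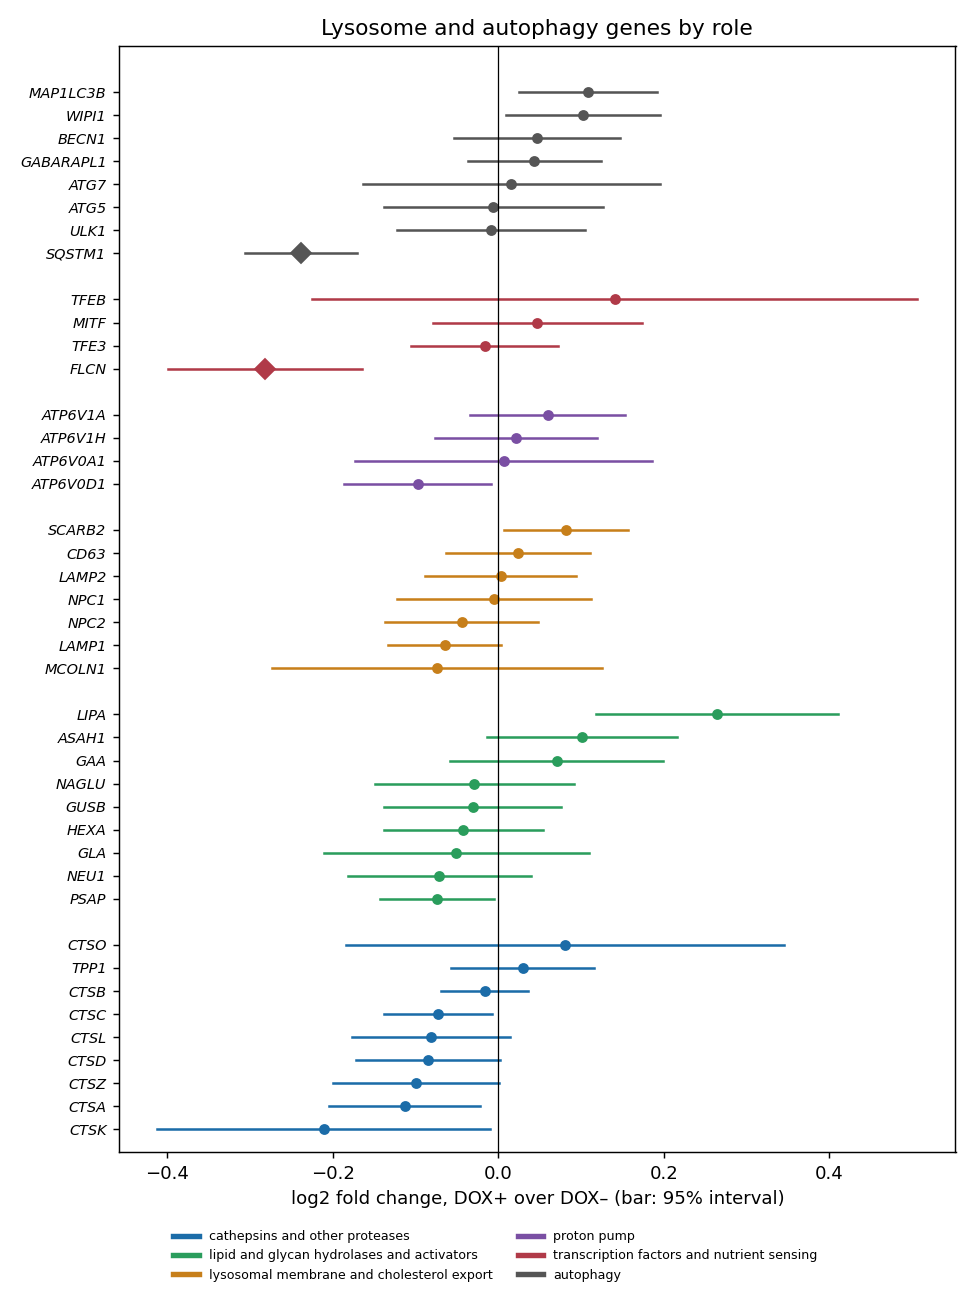
Log2 fold change of DOX+ over DOX– libraries (horizontal) for the 41 tested genes, grouped by role and coloured by it, with bars for the 95% interval from edgeR's fit (n = 3 libraries per group) and diamonds for genes past a false discovery rate of 0.05. SQSTM1 at −0.24 and FLCN at −0.28 are the diamonds, LIPA at 0.26 is the gene farthest to the right, and most intervals cross 0.

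SQSTM1 (ENSG00000161011, chromosome 5, 179806398 to 179838078 on the plus strand of GRCh38) encodes p62, the receptor that ties ubiquitinated cargo to the autophagosome membrane and is itself consumed by autophagy. Its level was 495, 495 and 511 CPM in the DOX– libraries and 423, 416 and 434 CPM in the DOX+ libraries. Every DOX+ library was below every DOX– library, with a gap several times the spread within either group. DOX+ cells kept 84.8% of the DOX– level, a log2 fold change of −0.24 (SE 0.0313, edgeR adjusted p = 0.0020). The call held in all 17 alternative fits, with log2 fold changes from −0.25 to −0.19. Of the exonic bases of SQSTM1, 21.0% are shared with MRNIP on the opposite strand, a gene with 400 to 490 counts per library against 14755 to 17811 for SQSTM1. MGAT4B, also on the opposite strand and with 7197 to 8071 counts per library, shares 1.39% of them.

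FLCN (ENSG00000154803, chromosome 17, 17212212 to 17237188 on the minus strand of GRCh38) encodes folliculin, the GTPase-activating protein that acts on RagC and RagD and thereby keeps TFEB and TFE3 out of the nucleus in fed cells. It stood at 35.9, 37.6 and 39.5 CPM in DOX– libraries and at 30.8, 31.3 and 30.9 CPM in DOX+ libraries. The DOX+ values were tightly grouped and all lay below the lowest DOX– value. The log2 fold change was −0.28 (SE 0.0545, edgeR adjusted p = 0.0261), and 82.3% of the DOX– level remained. This call was close to the threshold and did not survive 5 of the 6 omissions of a single library, with edgeR adjusted p-values of 0.0968 without DOX– replicate 2, 0.135 without DOX– replicate 3, and 0.130, 0.0532 and 0.0596 without DOX+ replicates 1, 2 and 3, while the log2 fold change stayed between −0.32 and −0.25. FLCN shares 11.9% of its exonic bases with AC055811.2, a feature on the same strand with 11 to 26 counts per library.

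The factors that FLCN regulates did not pass the test. TFEB, at 3.43, 4.58 and 3.50 CPM in DOX– libraries and 4.79, 3.58 and 4.31 CPM in DOX+ libraries, overlapped between the groups and had a wide interval (log2 fold change 0.14, 95% interval −0.23 to 0.51). Leaving out 1 library moved its log2 fold change to between 0.04 (without DOX+ replicate 1) and 0.29 (without DOX– replicate 2). TFE3 had a log2 fold change of −0.02 (interval −0.11 to 0.07) and MITF one of 0.05 (interval −0.08 to 0.17). All DOX+ values of MITF were above all DOX– values, at 24.5 to 24.9 CPM against 23.65 to 24.4 CPM, but the edgeR adjusted p was 0.756. These are transcript levels, and the location of the proteins was not measured.

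**Figure D3:**
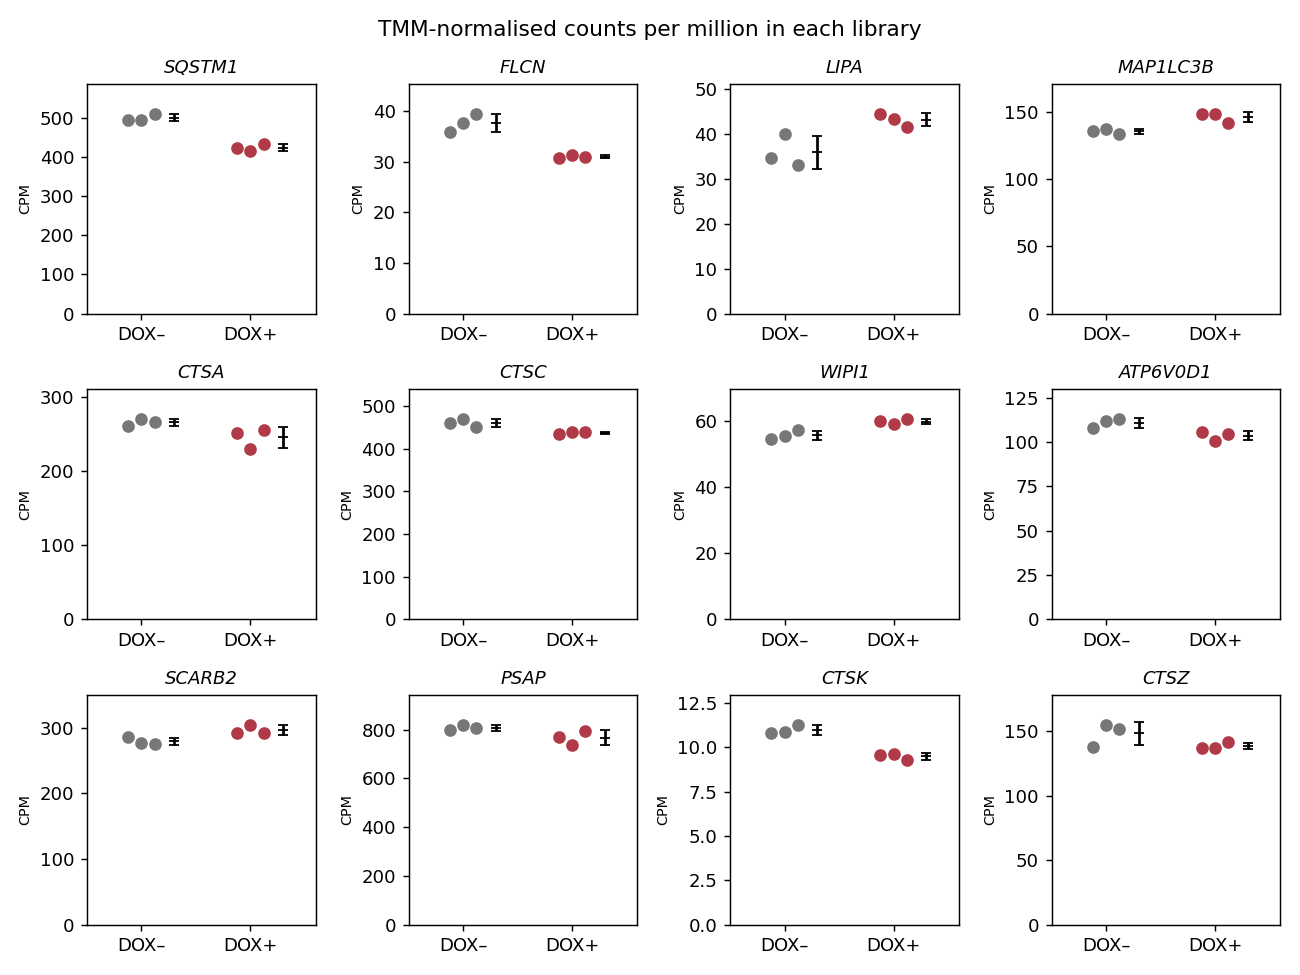
TMM-normalised CPM (vertical axis, from 0) of the 12 genes with the smallest p-values, in the 3 DOX– libraries (grey) and 3 DOX+ libraries (red), with the mean and SD in black beside each group. SQSTM1 falls from about 500 to 424 CPM and FLCN from 37.7 to 31.0 CPM, LIPA, MAP1LC3B, WIPI1 and SCARB2 are higher in each DOX+ library, and CTSZ overlaps between the groups.

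Apart from SQSTM1, the autophagy genes showed no call. MAP1LC3B, whose product is the lipid-coupled LC3B protein of the autophagosome membrane, was at 136, 137 and 133 CPM in DOX– libraries and 148.5, 148 and 141.5 CPM in DOX+ libraries. All 3 DOX+ values were higher, by 0.11 on the log2 scale (SE 0.0386), with an edgeR adjusted p of 0.209. MAP1LC3B has a near-identical copy, MAP1LC3B2, which received 3.00 ± 0.583 CPM (SD, n = 3) in DOX– and 2.64 ± 0.436 CPM (SD, n = 3) in DOX+ libraries, so how reads were split between them is uncertain. WIPI1, which binds phosphatidylinositol 3-phosphate on forming autophagosomes, read 54.6, 55.5 and 57.3 CPM in DOX– and 59.9, 59.15 and 60.6 CPM in DOX+ libraries. It too was higher in each DOX+ library (log2 fold change 0.10, edgeR adjusted p = 0.286), and 24.4% of its exonic bases lie opposite ARSG. GABARAPL1, another ATG8-family protein, was separated by a narrow margin (log2 fold change 0.04, edgeR adjusted p = 0.627). The kinase gene ULK1, the class III kinase subunit BECN1 and the conjugation genes ATG5 and ATG7 had log2 fold changes from −0.0084 to 0.05 and overlapping groups. The ratio of the SQSTM1 to the MAP1LC3B level by FPKM was 3.475 ± 0.091 in DOX– libraries and 2.70 ± 0.115 in DOX+ libraries (SD, n = 3 each), which restates the separate values of both genes and is no further evidence.

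Among the 9 cathepsin and protease genes tested, 7 were lower, 2 were higher and 0 passed edgeR's test, with 3 lower at an unadjusted p under 0.05 (33.3%, against 7.69% of all features) and 0 called by DESeq2 or limma-voom. Their median log2 fold change was −0.08. Cathepsin A (CTSA), the protective protein of the sialidase complex, measured 261, 270 and 266 CPM in DOX– and 252, 229.9 and 256 CPM in DOX+ libraries. CTSC, which activates granule serine proteases, measured 459.9, 469.0 and 451 CPM in DOX– and 435, 438.5 and 439 CPM in DOX+ libraries. CTSK measured 10.8, 10.9 and 11.3 CPM in DOX– and 9.56, 9.59 and 9.28 CPM in DOX+ libraries. In each of these 3 the groups did not overlap, and the lowest DOX+ value of CTSA was that of replicate 2. Their log2 fold changes were −0.11, −0.07 and −0.21, with edgeR adjusted p-values of 0.227, 0.282 and 0.308. Without DOX+ replicate 2 the log2 fold change of CTSA was −0.07 (edgeR adjusted p = 0.537). The aspartic protease gene CTSD was also lower in every DOX+ library by a small margin of CPM (log2 fold change −0.09, edgeR adjusted p = 0.343). Without DOX+ replicate 2 its log2 fold change was −0.05. By deposited FPKM the groups of CTSD overlapped, at 132.6 to 149.9 in DOX– and 132.6 to 147.6 in DOX+ libraries. CTSZ, at 138, 155 and 151.5 CPM in DOX– and 137, 137 and 141 CPM in DOX+ libraries, overlapped (log2 fold change −0.10, edgeR adjusted p = 0.340, and −0.07 without DOX– replicate 2). So did CTSL (−0.08), CTSB (−0.02), CTSO (0.08) and the tripeptidyl peptidase gene TPP1 (0.03), and CTSB, at the highest CPM of the list, had a narrow interval of −0.07 to 0.04. Reads of CTSZ and CTSD are uncertain, since 31.65% of the exonic bases of CTSZ lie opposite NELFCD (1766 to 2054 counts per library) and 22.9% of those of CTSD are shared with AC068580.4. AC068580.4 lies on the same strand as CTSD and ranged from 78 to 1233 counts between libraries. The same holds for ATG7, with 18.1% of its exonic bases opposite VGLL4 (1449 to 1791 counts per library), for BECN1, with 12.4% opposite CNTD1 (0 to 5 counts) and 4.68% opposite PSME3 (5250 to 5691 counts), and for GLA, with 8.99% opposite RPL36A (2748 to 3444 counts). CTSA has 11.1% opposite NEURL2 (2 to 8 counts) and 3.81% opposite PLTP (564 to 694 counts). NPC1 has 6.38% opposite RMC1 (840 to 960 counts). LIPA has 1.92% opposite IFIT3 (234 to 320 counts) and 1.33% opposite IFIT2 (99 to 139 counts). HEXA, NPC2, MCOLN1 and MAP1LC3B shared 4.27% or less with any other feature.

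LIPA stood out among the 9 genes for lipid and glycan breakdown. It encodes lysosomal acid lipase, which frees cholesterol and fatty acids from the esters delivered by lipoproteins, and it measured 34.5, 40.0 and 33.1 CPM in DOX– libraries and 44.5, 43.3 and 41.5 CPM in DOX+ libraries. Every DOX+ library was above every DOX– library, although DOX– replicate 2 came close. The log2 fold change of 0.26 (SE 0.0677) had an edgeR adjusted p of 0.0852. It passed in 3 of 17 alternative fits, with adjusted p = 0.0123 from DESeq2, 0.0368 by edgeR without the count filter and 0.0242 by edgeR without DOX– replicate 2, where the log2 fold change was 0.35, and over all 17 the adjusted p ranged up to 0.306. PSAP, the source of the saposins, read 796.7, 821 and 807 CPM in DOX– and 769.9, 737 and 796.5 CPM in DOX+ libraries, separated only by 796.5 against 796.7 CPM (log2 fold change −0.07, edgeR adjusted p = 0.298, and −0.04 without DOX+ replicate 2). The acid ceramidase gene ASAH1 (log2 fold change 0.10) and the glycogen-degrading GAA (0.07) were higher on average, and the glycosidase genes NEU1 (−0.07), GLA (−0.05), HEXA (−0.04), GUSB (−0.03) and NAGLU (−0.03) lower, all with overlapping groups and edgeR adjusted p-values of 0.398 or more. These differences depended on single libraries. ASAH1 was at 0.15 without DOX– replicate 2 and 0.05 without DOX– replicate 3, and GAA was at 0.05 without DOX– replicate 1 or DOX+ replicate 1 and 0.11 without DOX+ replicate 2. HEXA was at −0.0011 without DOX+ replicate 2 and −0.07 without DOX+ replicate 3, and NEU1 was at −0.04 without DOX– replicate 3. GLA was at −0.02 without DOX– replicate 3, −0.03 without DOX+ replicate 1 and −0.09 without DOX+ replicate 3, and GUSB was at −0.01 without DOX– replicate 2 and −0.02 without DOX+ replicate 2.

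Membrane and cholesterol export genes were close to level. SCARB2, the LIMP-2 protein that carries glucocerebrosidase to the lysosome, measured 286, 277 and 276 CPM in DOX– and 292, 305 and 292 CPM in DOX+ libraries. It was higher in each DOX+ library by 0.08 on the log2 scale (edgeR adjusted p = 0.291). LAMP1 was lower in each DOX+ library by CPM (log2 fold change −0.06, edgeR adjusted p = 0.355), whereas its relative LAMP2 was level (0.0030, 95% interval −0.09 to 0.09). The cholesterol exporters NPC1 (−0.0052) and NPC2 (−0.04), the calcium channel gene MCOLN1 (−0.07) and CD63 (0.02) overlapped between groups. Of the proton pump subunits, ATP6V0D1 in the membrane sector measured 108, 112 and 113 CPM in DOX– and 106, 101 and 105 CPM in DOX+ libraries, lower in each (log2 fold change −0.10, edgeR adjusted p = 0.290). ATP6V0A1 (0.0065), ATP6V1A (0.06) and ATP6V1H (0.02) overlapped.

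Across the 41 genes, those that were lower tended to have transcripts richer in G and C. The 9 genes lower without overlap had a median GC content of 56.0% in their canonical GENCODE transcript, the 26 overlapping genes 50.4% and the 6 genes higher without overlap 42.2%. Across the 41 genes Spearman's rho of log2 fold change with GC content was −0.43, and across 12765 tested features with a known transcript it was −0.38. Without DOX+ replicate 2, a calculation added after the data were seen, rho was −0.29 for the 41 genes and −0.22 for all features, and without DOX– replicate 3 it was −0.29 and −0.24. These values are a description, in which the genes share the same 6 libraries and are not independent replicates. With a per-library trend on GC content removed, an alternative added after the data were seen, SQSTM1 was at −0.19 (edgeR adjusted p = 2.59e-04) and FLCN at −0.24 (edgeR adjusted p = 0.0252), so both calls were kept. LIPA was then nearer to 0, at 0.21 (edgeR adjusted p = 0.0947), as were CTSA at −0.07, LAMP1 at −0.03 and CTSD at −0.0090. CTSZ (−0.05), ATP6V0D1 (−0.05), PSAP (−0.04), SCARB2 (0.04), ASAH1 (0.04) and MAP1LC3B (0.07) also lay nearer to 0 in that fit. Others lay farther from 0, among them CTSC at −0.09 (edgeR adjusted p = 0.0549), CTSK at −0.22, WIPI1 at 0.11, GAA at 0.15 and TFEB at 0.22. DOX+ replicate 2 was the lowest of the 3 DOX+ libraries for 24 of the 41 genes and for 19 of the 22 with a GC content over 50%.

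**Figure D4:**
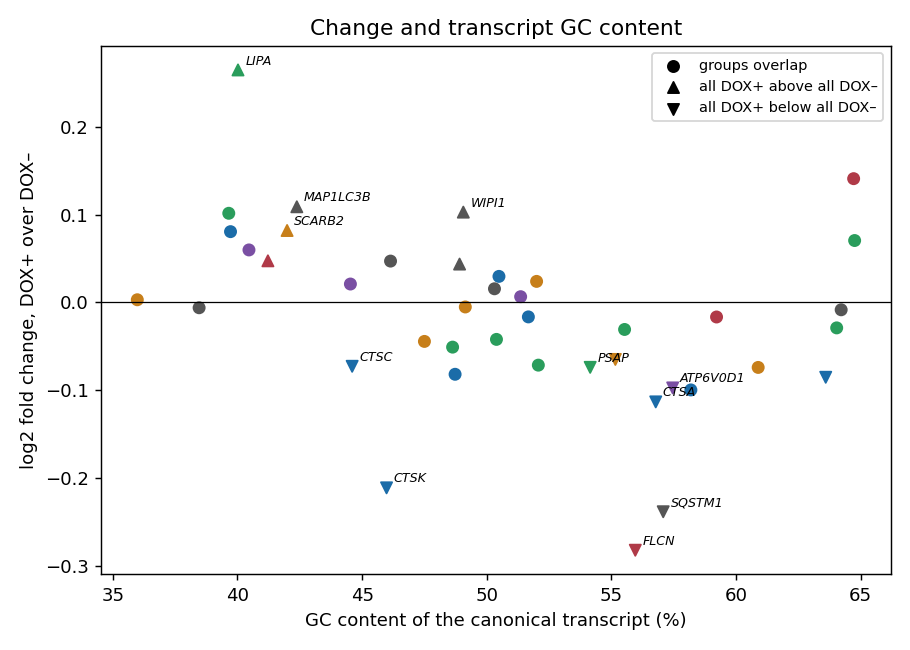
Log2 fold change of DOX+ over DOX– libraries (vertical) against the GC content of the canonical transcript in percent (horizontal) for the 41 genes, coloured by role as in the plot of log2 fold changes, with upward triangles where all DOX+ libraries exceeded all DOX– libraries and downward triangles where all were below. Genes with an unadjusted p under 0.05 are named, and the 6 upward triangles lie between 40.0% and 49.1% GC while SQSTM1 and FLCN lie at 57.1% and 56.0%.

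Promoter sequence was compared with these changes because the MiT/TFE factors act through E-boxes. RefSeq promoter windows of GRCh38.p14, from 250 bases before to 50 bases after the gene start, were matched by symbol for 31 of the 43 genes. The E-box CACGTG, which reads the same on both strands, was in 8 of the 31 windows (25.8%) and in 7.26% of 35116 windows of the same length. Its longer form TCACGTGA, of which CACGTG is the core, was in 5 (16.1%) and in 0.98% of all windows. The core of the amino acid response element bound by ATF4, TGATGNAA searched on both strands, was in 0 of the 31 and in 3.62% of all windows. The 35116 windows were not limited to tested genes or to 1 window per gene, so they are an unlike set. Among tested features with a window, 1018 held CACGTG and 9081 did not. The upstream 250 bases are shown for the 2 genes that fell, neither with a CACGTG in its window, and for LAMP1, ATP6V0D1 and GAA, with E-boxes in capitals, 5′ to 3′ on the strand of the gene. They lie at chr5:179806143-179806392 (plus strand) for SQSTM1, chr17:17237169-17237418 (minus) for FLCN, chr13:113296989-113297238 (plus) for LAMP1, chr16:67481158-67481407 (minus) for ATP6V0D1 and chr17:80101331-80101580 (plus) for GAA.
SQSTM1: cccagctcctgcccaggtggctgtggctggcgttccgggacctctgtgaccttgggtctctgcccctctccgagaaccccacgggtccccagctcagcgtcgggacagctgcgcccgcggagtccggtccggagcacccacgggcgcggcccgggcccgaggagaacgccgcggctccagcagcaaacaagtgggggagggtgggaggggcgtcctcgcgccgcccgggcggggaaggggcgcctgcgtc
FLCN: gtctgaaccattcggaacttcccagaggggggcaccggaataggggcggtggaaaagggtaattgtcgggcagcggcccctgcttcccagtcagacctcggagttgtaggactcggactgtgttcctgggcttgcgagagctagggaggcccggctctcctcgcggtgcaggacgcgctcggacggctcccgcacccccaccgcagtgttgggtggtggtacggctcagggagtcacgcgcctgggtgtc
LAMP1: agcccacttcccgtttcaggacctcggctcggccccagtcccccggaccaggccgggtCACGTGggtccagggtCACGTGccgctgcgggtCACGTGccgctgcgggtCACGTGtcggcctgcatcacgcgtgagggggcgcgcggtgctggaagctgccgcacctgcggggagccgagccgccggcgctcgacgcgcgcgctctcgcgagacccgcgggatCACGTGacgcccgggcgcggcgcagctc
ATP6V0D1: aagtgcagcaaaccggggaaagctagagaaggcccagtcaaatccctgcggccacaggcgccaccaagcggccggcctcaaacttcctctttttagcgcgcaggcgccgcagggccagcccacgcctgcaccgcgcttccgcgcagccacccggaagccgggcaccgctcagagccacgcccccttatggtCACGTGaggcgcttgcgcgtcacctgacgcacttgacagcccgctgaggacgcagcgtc
GAA: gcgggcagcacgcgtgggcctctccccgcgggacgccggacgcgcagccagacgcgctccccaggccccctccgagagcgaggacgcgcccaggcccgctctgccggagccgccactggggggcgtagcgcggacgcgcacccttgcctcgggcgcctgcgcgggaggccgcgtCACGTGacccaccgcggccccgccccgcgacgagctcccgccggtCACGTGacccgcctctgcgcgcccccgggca

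The 8 genes with an E-box in the window were CTSA, CTSD, NEU1, GAA, LAMP1, MCOLN1, CD63 and ATP6V0D1. LAMP1 held 5 complete copies upstream of its start, the nearest beginning 28 bases before it, and 1 more spanning the start. Of the 8 genes, 6 were lower and 2 higher in DOX+ libraries, with a median log2 fold change of −0.07, and 4 (CTSA, CTSD, LAMP1 and ATP6V0D1) were lower without overlap. In each of the 8, the lowest DOX+ value was that of replicate 2, the library that stood apart on the first principal component. The split by E-box without that library is not given. The 23 tested genes of the list whose window had none held both called genes, with 11 higher and 12 lower, a median of −0.0052, 3 lower without overlap and 6 higher without overlap. Among 1018 tested features with an E-box in their window the median was −0.01 and 12.9% were lower without overlap, against 0.0009 and 10.8% for 9081 features whose window had none. Higher without overlap were 0 of the 8 genes, beside 8.94% of the 1018 features. For windows with none it was 26.1% of the 23 genes, beside 10.5% of the 9081 features. The transcripts of the 8 genes had a median GC content of 57.1%, so promoter motif and GC content moved together here. A match describes letters in a window and not a bound site.

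Other genes of the same pathways, 159 with a row in the table, were taken from a list by function. Of the 147 tested, 65 had a higher mean and 82 had a lower mean (median log2 difference −0.0053), and edgeR called 0 in either direction, with 11 higher (7.48%, against 7.31% of all features) and 10 lower (6.80%, against 7.69%) at an unadjusted p under 0.05, shares near the background. DESeq2 called 5 higher (OSTM1, CTBS, BNIP3L, GNPTAB and PRKAA1, of which GNPTAB is named after its values were seen) and 1 lower (ATP6AP1), and limma-voom called 0. The share of all features called by DESeq2 is not given, so its counts cannot be set against a background. CTBS, a chitobiase that trims glycans, was at 20.6 ± 1.00 CPM in DOX– and 25.5 ± 1.62 CPM in DOX+ libraries (SD, n = 3 each; log2 fold change 0.31, edgeR adjusted p = 0.0573). OSTM1, the partner of the lysosomal chloride transporter CLCN7, was at 48.05 ± 3.15 CPM in DOX– and 57.8 ± 4.07 CPM in DOX+ libraries (SD, n = 3 each; log2 fold change 0.27, edgeR adjusted p = 0.0611). In the other roles the smallest p-values belonged to the pump accessory subunit ATP6AP1 (log2 fold change −0.15), the mitophagy receptor BNIP3L (0.15), the AMP-activated kinase subunit PRKAA1 (0.16) and the dipeptidyl peptidase gene DPP7 (−0.14). Their edgeR adjusted p-values ran from 0.106 to 0.230. By role, 4 of the 17 further proton pump genes were higher and 13 lower (median −0.06), beside 6904 higher and 7087 lower among all features. The nutrient-sensing genes had 9 higher and 15 lower, the hydrolases 12 and 15, the membrane genes 11 and 12, the proteases 5 and 5, and the autophagy genes 24 and 22.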

How the data were processed

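RNA from 3 Control (DOX–) and 3 ShZNF469 (DOX+) libraries was analysed, grouped by the sample titles. Libraries were sequenced as 150 bp read pairs, per the labels. According to the study's methods, the authors aligned quality-filtered reads to GRCh38 with HISAT2 and StringTie. Versions, annotation release and counting step are not given in the sources used here. The deposited counts are whole numbers per gene without normalization, and the authors also deposited FPKM, used here for levels only. After 17 stray lines were dropped, 23754 features remained. DOX+ was compared with DOX– by edgeR 4.0.16 in R 4.3.3 (filterByExpr with a minimum count of 10, TMM, quasi-likelihood test without covariates, Benjamini-Hochberg adjustment over 13991 features). Each SE was obtained by dividing the size of the log2 fold change by the root of its F statistic. DESeq2 1.42.0, limma-voom (limma 3.58.1), other filters and scalings, a replicate block, trends on length or GC of GENCODE 44 canonical transcripts (lowess span 0.3), a table without unannotated loci and leaving out each library were alternatives. An exact permutation test of 1 gene cannot go below p = 0.1 with 3 libraries against 3. Scripts were tested on simulated data. All listed genes are named, the 12 with the smallest p with every library, and of the further pathway genes those past the threshold and the 1 with the smallest p per role. Members and lists were chosen with earlier results of these data known. Exonic overlap counts either strand, since the counting is not stated to use strand. At this depth counting error limits only genes with few counts.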

Additional observations from a re-analysis of the deposited data

How the results depend on the processing

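The call on SQSTM1 was kept in every alternative run, and 25 of the 41 genes kept their direction in all of them. No listed gene was called higher by edgeR, against 1 (LIPA) by DESeq2, 1 without a count filter, 4 at an unadjusted p under 0.05 and 0 to 1 when a library was left out. The count called lower was 7 at an unadjusted p and 1 to 2 when a library was left out, FLCN being the gene lost. Of the further pathway genes called higher, there were 2 without a filter, 1 with a minimum of 1 CPM, 1 with library size scaling, 5 by DESeq2, 4 with a replicate block, 1 with the GC trend removed, an alternative chosen after seeing the data, and 11 at an unadjusted p. Called lower were 1 by DESeq2, 10 at an unadjusted p and 0 to 1 with a library left out (PPT1 at −0.34, edgeR adjusted p = 0.0136, without DOX+ replicate 2). Shares of all features are given only for the main edgeR fit and the unadjusted p. Counts under the other settings have no background beside them.

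Genes near 0 changed sign in some fits, with the following log2 fold changes. With the GC trend removed ULK1 was at 0.0711, TFE3 at 0.0406, NPC1 at 0.0035, LAMP2 at −0.0785, NAGLU at 0.0491, CTSB at 0.0038 and GUSB at 0.0094. With library size scaling CTSB was at 0.0041, NPC1 at 0.0151, TFE3 at 0.0040, ULK1 at 0.0123 and ATG5 at 0.0146, a setting that rescales every gene alike and moved the median of all features from −0.0019 to 0.0188. With the length trend removed ATG7 was at −0.0120, ATP6V0A1 at −0.0052, NPC2 at 0.0296, LAMP2 at −0.0296 and GLA at 0.0003. Leaving out each library in turn gave −0.0796 to 0.1061 for ATG7, −0.0479 to 0.0157 for ULK1, −0.0102 to 0.05 for ATP6V1H, −0.0061 to 0.0689 for CD63, −0.0527 to 0.0234 for NPC1, −0.1374 to 0.0347 for MCOLN1, −0.0752 to 0.0764 for ATP6V0A1, −0.0417 to 0.0383 for ATG5, −0.0443 to 0.0018 for TFE3, −0.0682 to 0.0236 for NAGLU, −0.0290 to 0.1883 for CTSO and −0.0302 to 0.0317 for LAMP2. Without a sign change the range was −0.11 to −0.05 for CTSL, −0.03 to −0.0022 for CTSB, 0.02 to 0.05 for TPP1, −0.07 to −0.03 for NPC2, 0.03 to 0.08 for ATP6V1A and 0.02 to 0.09 for BECN1. The cause of the sign changes other than those under library size scaling was not tested.

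Whether replicate numbers pair the libraries is not settled. Deviations of same-numbered libraries correlated at −0.0241, −0.0352 and 0.0363, and not every library correlated best with its own number, though both libraries of replicate 3 did. The deviations were taken from the group means of few libraries, so correlations near 0 cannot exclude pairs. With the replicate block the listed genes had 0 called higher and 2 lower. CTSO and TFEB had no adjusted p by DESeq2.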

Other observations

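Among the further proton pump genes, of which 13 of 17 were lower, 3 were lower without overlap (17.6%, against 10.6% of all features), whereas 3 of the 4 listed subunits were higher (median log2 fold change 0.0137). ATP6AP1 was lower in each DOX+ library (168.9 ± 3.71 CPM in DOX– and 152.0 ± 6.21 CPM in DOX+, SD, n = 3 each), as was the subunit gene ATP6V1B2 (103.9 ± 2.62 against 95.7 ± 3.82 CPM, SD, n = 3 each, edgeR adjusted p = 0.221), named here after its values were seen. Among 27 further lysosome and autophagy genes with an E-box in the promoter window, 22 were lower and 5 higher, with a median log2 fold change of −0.03 and a median transcript GC content of 57.7%, against 44 higher and 49 lower, a median of −0.0027 and 47.3% GC for the 93 whose window had none. Of the 27, 4 (14.8%) were lower without overlap, beside 12.9% of all tested features with an E-box, and edgeR called 0. Among all tested features with an E-box 460 were higher and 557 lower. The split of the further genes by E-box was seen after the values were known and was not tested, and motif and GC content cannot be told apart in it.

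The deposited FPKM and the TMM-scaled CPM differed in precision, and in direction, for some genes. HEXA had an SD of 4.71 FPKM on a mean of 30.95 in DOX– libraries, whereas its CPM had an SD of 0.848% of the mean, and ASAH1 had an SD of 3.675 FPKM on a mean of 23.3. CTSB had an SD of 45.3 FPKM on a mean of 361 in DOX+ libraries, whereas its CPM had an SD of 1.63% of the mean. From DOX– to DOX+ the mean of CTSB rose from 341 to 361 FPKM but fell from 1317 to 1302 CPM. That of HEXA rose from 30.95 to 33.2 FPKM but fell from 109.1 to 105.9 CPM. The mean of CTSD went from 140.3 to 140.5 FPKM but from 317.9 to 299.7 CPM. TFE3, ULK1, ATG5, GUSB and NPC1 also had a higher mean FPKM and a lower mean CPM in DOX+ libraries. CTSA, CTSC, CTSD, PSAP and LAMP1, lower without overlap by CPM, overlapped between the groups by FPKM. SQSTM1, FLCN, CTSK and ATP6V0D1 were lower without overlap by both measures.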
